A study of Mus musculus with 6 samples.

Results

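Gasdermins are pore-forming proteins. The 6 gasdermin genes described here are Gsdmc, Gsdmc2, Gsdmc3 and Gsdmc4, which lie side by side on chromosome 15 (63775971 to 63912319, mm10), Gsdmd, farther along the same chromosome (75862144 to 75867408), and Gsdma on chromosome 11 (98664337 to 98677708). They were taken by symbol from the 19949 genes and unnamed entries counted in mouse colon, and all 6 passed the filter on low counts that left 15066 genes to test. The colons came from BALB/c mice aged 6 to 8 weeks that were fed 3% dextran sulfate sodium (DSS), which injures the colonic epithelium, for 3 days. One group was wild type (WT) and the other STAT6-/-, lacking in the whole animal an intact gene for STAT6, the transcription factor that relays interleukin-4 (IL-4) and interleukin-13 (IL-13) signals. Each genotype had 3 libraries of total RNA, and both groups received DSS, so that colons without DSS are not analysed here. Per the labels' protocols, tissue came from the proximal part of the intestine, with luminal content and mucus scraped off. Nothing in the labels ties a library to an animal, so p-values cover the spread among libraries only, which may be technical.

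A gasdermin is made as an inactive protein whose carboxy-terminal part covers its amino-terminal part. When a protease cuts between them, the freed amino-terminal part enters the plasma membrane and forms pores, through which interleukin-1 family cytokines leave and by which the cell may die, a process called pyroptosis. Gsdmd is the gasdermin cut downstream of inflammasomes and is present in gut epithelium as well as in macrophages. The Gsdmc genes have been reported as STAT6-driven genes of the mouse gut epithelium, induced by IL-4 and IL-13. Gsdma is best known from skin and the upper digestive tract. The comparison of STAT6-/- with WT asks how far these transcripts depend on STAT6 in the injured colon.

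The Gsdmc genes are near copies of one another, which decides how their reads can be told apart. The first 120 coding bases of each, from the start codon, are printed from GENCODE M21 (mm10, minus strand), with capitals at the bases that differ from Gsdmc2.
Gsdmc2: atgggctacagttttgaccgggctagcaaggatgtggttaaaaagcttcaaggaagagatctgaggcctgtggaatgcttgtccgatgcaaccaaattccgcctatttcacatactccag
Gsdmc3: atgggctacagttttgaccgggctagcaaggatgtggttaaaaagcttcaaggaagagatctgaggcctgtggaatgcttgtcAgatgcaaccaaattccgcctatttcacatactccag
Gsdmc4: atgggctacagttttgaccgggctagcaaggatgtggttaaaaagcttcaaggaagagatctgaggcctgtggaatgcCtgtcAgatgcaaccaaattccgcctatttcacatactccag
Gsdmc: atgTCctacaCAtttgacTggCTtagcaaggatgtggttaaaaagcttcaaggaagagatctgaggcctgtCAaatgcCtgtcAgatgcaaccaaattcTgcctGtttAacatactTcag
In this stretch Gsdmc3 differs from Gsdmc2 at 1 base, Gsdmc4 at 2 and Gsdmc at 15. Over the whole coding sequence Gsdmc2 and Gsdmc3 were identical in 97.1% of aligned columns. Gsdmc4 matched Gsdmc2 in 92.9% and Gsdmc3 in 93%, and Gsdmc matched these 3 in 82.5% to 83.8%. Gsdmd and Gsdma were far from the cluster, with identities of 46.9% to 49.2% to its genes. Stretches of 100 bases were compared among the transcripts of these genes and of the neighbouring pseudogene Gsdmcl-ps. The rest of the family, Gsdma2 and Gsdma3 among them, and the other Gsdmc-like pseudogenes were not compared. For Gsdmc2, Gsdmc3 and Gsdmc4, 20.2% to 25% of the stretches also occurred in another gene of this set. The share was 7.33% for Gsdmc and 0 for Gsdmd and Gsdma. Reads from shared stretches were divided among the copies by estimation. The values of single Gsdmc genes are therefore less certain than those of their sum and of Gsdmd. Stretches that Gsdma may share with Gsdma2 or Gsdma3 would not be seen here.

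The RefSeq promoter table (GRCm38.p6) holds 1 of the 6 genes, Gsdmc3. Its promoter is printed because this gene fell most, from 250 bases before to 50 after the start (chr15:63878509-63878808, minus strand).
Gsdmc3 promoter: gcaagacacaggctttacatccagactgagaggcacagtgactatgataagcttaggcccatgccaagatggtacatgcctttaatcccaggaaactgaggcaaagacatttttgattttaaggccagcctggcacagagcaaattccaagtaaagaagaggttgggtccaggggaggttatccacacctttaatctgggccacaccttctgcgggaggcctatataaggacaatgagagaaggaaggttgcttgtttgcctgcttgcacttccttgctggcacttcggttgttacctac
Neither the STAT6 motif (TTC and GAA with 4 free bases between them) nor the motif of other STAT proteins (the same with 3 free bases) occurs in these letters on either strand, hence no capitals. Of all 32851 promoters of this length in the table, 6.95% hold the first motif and 8.3% the second. A site outside these bases would not be seen.

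The libraries held 17122315 to 19555450 expected counts. Stat6 itself stood at 49.9, 38.5 and 53.2 CPM (counts relative to library size, with TMM scaling) in STAT6-/- replicates 1, 2 and 3 and at 91.3, 104 and 88.7 in WT, 2.01-fold lower (edgeR, quasi-likelihood F test with Benjamini-Hochberg adjustment over all genes tested, adjusted p = 0.0134; 0.0725 with WT replicate 2 left out and 0.0721 with WT replicate 3 left out). The female-specific Xist stood at 352 to 545 CPM in WT and at most at 1.01 in STAT6-/-, and the Y-linked Ddx3y at 50.8 to 59.5 in STAT6-/- and at most at 0.125 in WT, so genotype and sex cannot be told apart in any result here. Pan-epithelial markers (10 genes, all measured) summed to 16479 to 27496 CPM in STAT6-/- and to 16383 to 21695 in WT. Among them Epcam, the epithelial adhesion molecule, stood at 1539 to 2272 CPM. Of the 10, 2 rose, Vil1 and Elf3, where 11.4% of all genes tested were higher. The edgeR adjusted p of Elf3 was 0.0581 with a replicate block. Markers of stratified epithelium, which the colon lacks, summed to 3007 CPM in WT replicate 1 and to 3.36 to 31.5 in the other 5 libraries. In bulk tissue, fewer cells of a type and less RNA per cell cannot be told apart.

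The Gsdmc cluster was lower in the STAT6-/- colons, with folds from 1.5 for Gsdmc2 to 3.91 for Gsdmc3. Of the 6 gasdermin genes, 2 fell, Gsdmc3 and Gsdmc4, and none rose (edgeR adjusted p below 0.05; over all genes tested 11.5% were lower and 11.4% higher, 22.9% in all). The median log2 fold change of the 6 was -0.77, against 0.01 over all tested genes. Summed over its 4 genes, the cluster held 474, 539 and 669 CPM in STAT6-/- replicates 1, 2 and 3 and 1133, 1088 and 1213 CPM in WT. Every STAT6-/- library lay below every WT library, as was the case for 24.5% of all tested genes (46.5% did not overlap in either direction). The sum fell 2.04-fold, with a log2 fold change of -1.03 ± 0.20 (SE; edgeR, adjusted p = 0.0188). An exact two-sided permutation test of the 6 log2 sums gave p = 0.1, and no smaller value is possible with 6 libraries split evenly. On leaving out WT replicate 1, 2 or 3 in turn, the adjusted p of the sum was 0.0599, 0.0828 and 0.0856, with log2 fold changes of -1.04, -1.05 and -0.99. Leaving out WT replicate 2 or 3 took nearly all calls away across the genome, to 21 and 12 genes higher and 10 and 6 lower, from 1718 and 1731.

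**Figure D1:**
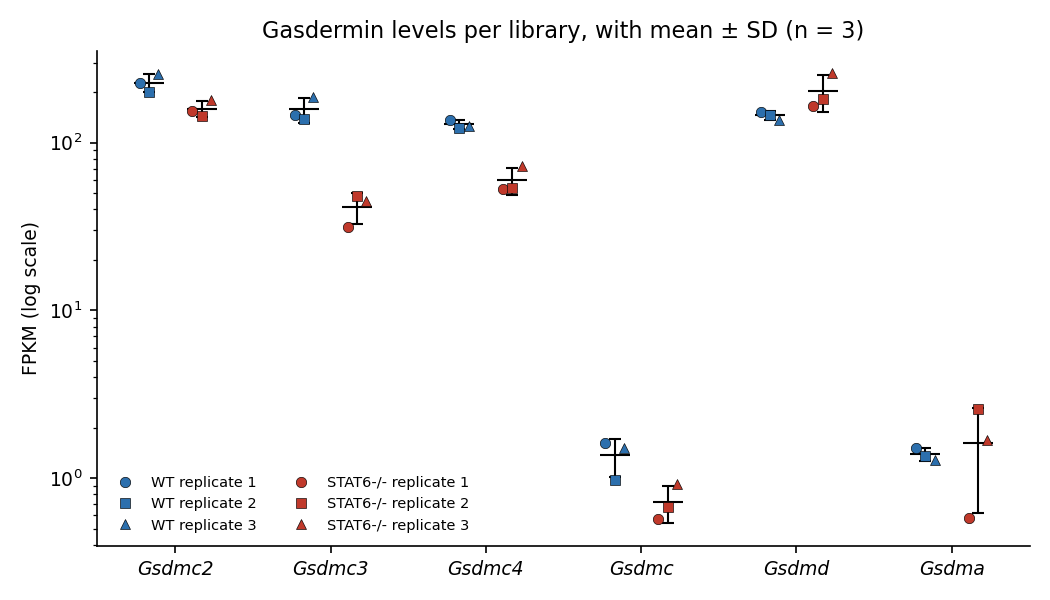
Level of each gasdermin gene in FPKM (fragments scaled to transcript length and library size, log axis) in each of the 6 libraries, with the mean ± SD of 3 libraries as a bar. The STAT6-/- points lie below the WT points for all 4 Gsdmc genes, most clearly for Gsdmc3 (31.6 to 48.1 against 138 to 188). In log2 CPM this was the case for 24.5% of all tested genes. For Gsdmd the STAT6-/- points lie above (166 to 259 against 136 to 153). Its groups overlap in CPM, and it was not called (edgeR adjusted p = 0.219).

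Gsdmc3 (chromosome 15, 63857605 to 63878579) fell most. It stood at 61.9, 104 and 98.8 CPM in STAT6-/- replicates 1, 2 and 3 and at 320, 321 and 393 CPM in WT. The lowest WT library thus lay above the highest STAT6-/- library by a wide margin. The mean went from 345 ± 42 to 88.1 ± 22.9 CPM (SD, n = 3), a 3.91-fold fall (log2 fold change -1.97 ± 0.24, edgeR adjusted p = 0.00965). Of all tested genes, 1.83% had a log2 fold change this low or lower.

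Gsdmc4 (63891140 to 63912319) fell as well, by less. Its values were 100, 113 and 156 CPM in STAT6-/- and 290, 278 and 253 CPM in WT, again without overlap. The fall was 2.23-fold, from 274 ± 18.6 to 123 ± 29.3 CPM (SD, n = 3; log2 fold change -1.15 ± 0.21, edgeR adjusted p = 0.0153). Both genes lost the call without WT replicate 2 (edgeR adjusted p = 0.0613 for Gsdmc3 and 0.0757 for Gsdmc4) and without WT replicate 3 (0.0675 and 0.0746), while the log2 fold change of Gsdmc3 stayed between -2.08 and -1.73, and that of Gsdmc4 between -1.32 and -0.99, over the 6 fits that each left out a library.

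Gsdmc2 (63824328 to 63845193), the most abundant of the 4, did not pass the test. It held 311, 321 and 412 CPM in STAT6-/- and 520, 486 and 563 CPM in WT, groups that do not overlap. The log2 fold change was -0.59 ± 0.19 (edgeR adjusted p = 0.0596), 1.5-fold lower. With upper quartile scaling the adjusted p was 0.043 and with DESeq2 0.00955, and without STAT6-/- replicate 3 it was 0.0338, so that the side of the threshold depends on these choices.

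Gsdmc itself (63775971 to 63808739) was scarce, with 27 to 67 expected counts per library. It stood at 1.24, 1.62 and 2.26 CPM in STAT6-/- and at 3.93, 2.53 and 3.52 CPM in WT. The log2 fold change was -0.96 ± 0.36 (edgeR adjusted p = 0.0944), and WT replicate 2 lay close to STAT6-/- replicate 3.

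**Figure D2:**
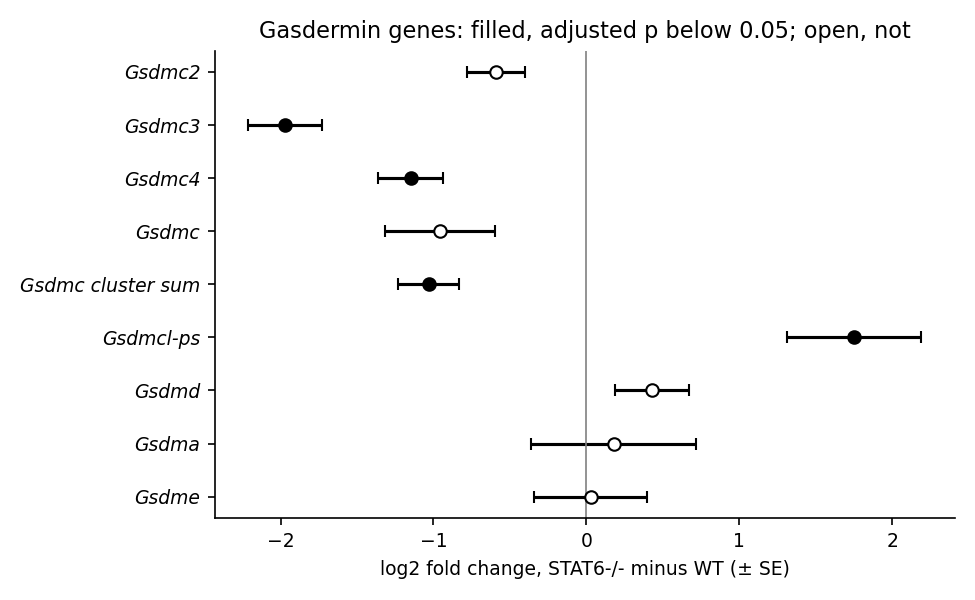
Log2 fold change of each gasdermin gene, of the summed Gsdmc cluster, of the neighbouring pseudogene Gsdmcl-ps and of Gsdme (STAT6-/- minus WT, ± SE from edgeR), with filled points for an adjusted p below 0.05. Gsdmc3, Gsdmc4 and the sum lie left of 0 and filled, Gsdmcl-ps right of 0 and filled, and Gsdmd, Gsdma and Gsdme are open.

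The makeup of the cluster had other values in the 2 genotypes. Gsdmc2 supplied 64.6%, 58.5% and 60.3% of the cluster's FPKM in STAT6-/- replicates 1, 2 and 3, and 44.4%, 43.3% and 44.9% in WT. Gsdmc3 supplied 13.2%, 19.5% and 15% in STAT6-/- and 28.6%, 29.9% and 33% in WT. Neither gene's shares overlapped between genotypes, with mean differences of 16.9 and -14.6 percentage points (STAT6-/- minus WT). The share of Gsdmc4 went from 25.1% ± 2.76 in WT to 22.7% ± 1.48 in STAT6-/- (SD, n = 3) with overlapping values, and Gsdmc held 0.21% to 0.315% in all libraries. Exact two-sided permutation tests gave p = 0.1 for Gsdmc2 and Gsdmc3, the smallest possible here, 0.3 for Gsdmc4 and 0.8 for Gsdmc (0.2, 0.2, 0.4 and 0.8 after Benjamini-Hochberg adjustment over the 4), so none passed. As a ratio of counts, Gsdmc2 exceeded Gsdmc3 by 2.33, 1.63 and 2.06 on the log2 scale in STAT6-/- and by 0.70, 0.60 and 0.52 in WT. These are the closest pair of the cluster in coding sequence.

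**Figure D3:**
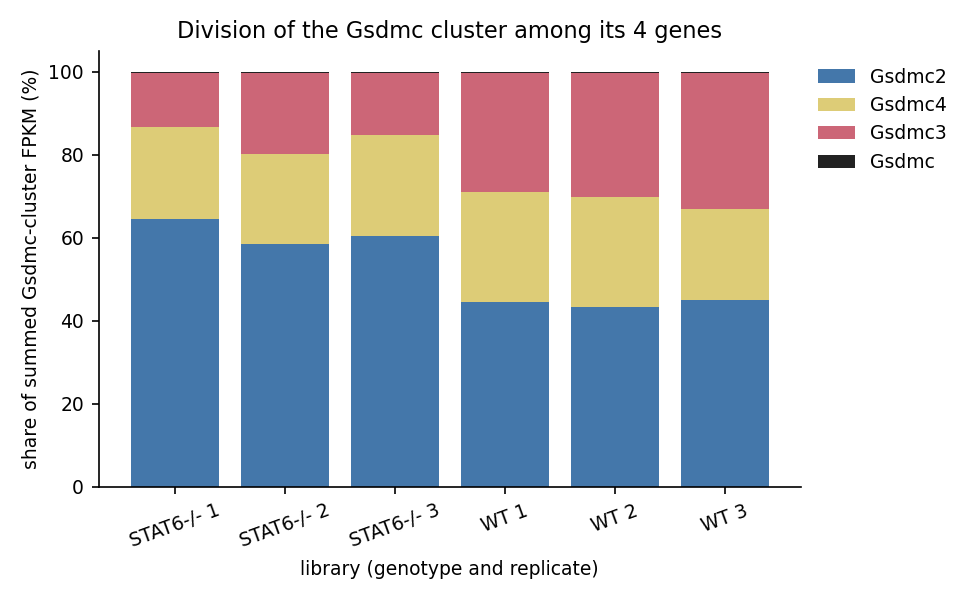
Share of the summed FPKM of the Gsdmc cluster held by each of its 4 genes (percent, stacked bars, 1 bar per library). Gsdmc2 takes 58.5% to 64.6% of the bar in the STAT6-/- libraries and 43.3% to 44.9% in WT, at the cost mainly of Gsdmc3, while Gsdmc is a sliver at the top.

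Gsdmc2 is the only Gsdmc gene listed with more than 1 RefSeq transcript, and its 2 transcripts had unlike values. As GENCODE M21 models them, they share the coding sequence of 1443 bases. The longer one has 2 more exons of 67 and 168 bases in its noncoding leader (chromosome 15, 63844695 to 63844761 and 63844154 to 63844321), and its last exon is 675 bases long against 811. The transcript with the extra exons stood at 160, 184 and 267 CPM in STAT6-/- and at 371, 343 and 436 CPM in WT, without overlap. The other stood at 151, 137 and 145 CPM in STAT6-/- and at 148, 143 and 128 CPM in WT, nearly level across all 6 libraries. In an edgeR fit over 20191 transcripts, added after the values were seen, neither passed: the log2 fold changes were -0.92 ± 0.23 (adjusted p = 0.0672) and 0.05 ± 0.12 (adjusted p = 0.855), where 3.67% of transcripts were called lower and 7.58% in either direction. The transcripts of Gsdmc3 and Gsdmc4 did pass in that fit (adjusted p = 0.0291 and 0.0347). The transcript with the extra exons made up 48.8%, 54.6% and 62.3% of the gene's FPKM in STAT6-/- and 69.2%, 68.3% and 75.4% in WT (exact two-sided permutation test, p = 0.1, the smallest possible). Since the coding parts are the same, this split rests on reads from the leader and the last exon.

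**Figure D4:**
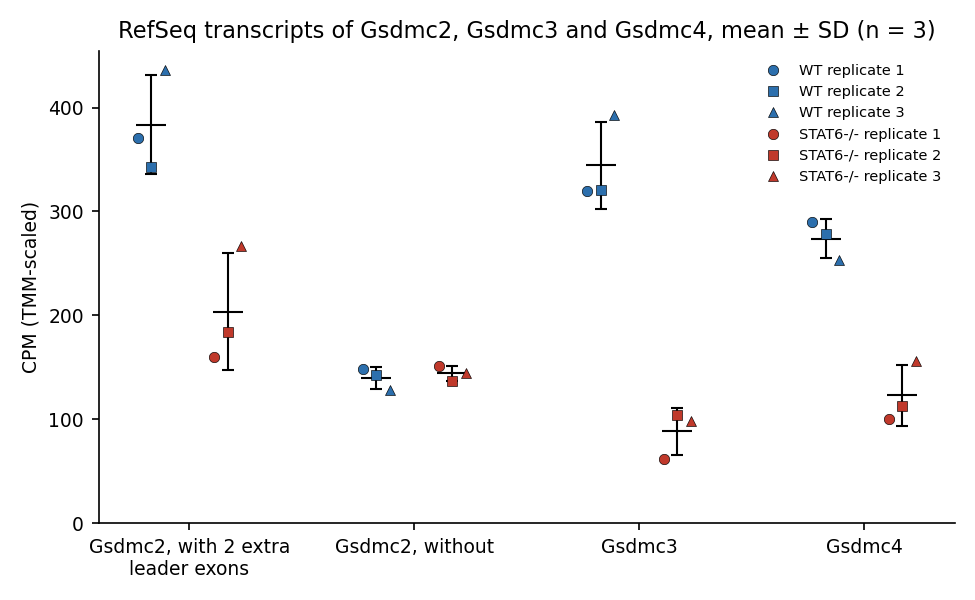
CPM of the 2 RefSeq transcripts of Gsdmc2 and of the Gsdmc3 and Gsdmc4 transcripts in each library, with the mean ± SD of 3 libraries. The Gsdmc2 transcript with 2 extra leader exons, Gsdmc3 and Gsdmc4 lie lower in STAT6-/-, while the other Gsdmc2 transcript lies between 128 and 151 CPM in all 6 libraries.

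Gsdmd, the gasdermin cut by caspase-1 and caspase-11, was abundant and did not pass the test. It held 268, 326 and 473 CPM in STAT6-/- replicates 1, 2 and 3 and 275, 283 and 234 CPM in WT. STAT6-/- replicate 1 lay within the WT range on this scale, whereas in FPKM all 3 STAT6-/- libraries (166, 183 and 259) lay above WT (153, 147 and 136). The log2 fold change was 0.43 ± 0.24 (edgeR adjusted p = 0.219), and it was 0.22 without STAT6-/- replicate 3 and 0.63 without STAT6-/- replicate 1, with adjusted p from 0.0979 to 0.467 with 1 library left out. Relative to the Gsdmc cluster, Gsdmd stood at 0.692, 0.741 and 0.87 FPKM per cluster FPKM in STAT6-/- and at 0.297, 0.319 and 0.238 in WT.

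Gsdma was scarce, at 31 to 135 expected counts per library. It held 1.45, 7.07 and 4.79 CPM in STAT6-/- and 4.21, 4.02 and 3.43 CPM in WT, so that the WT libraries lay inside the STAT6-/- range. The log2 fold change of Gsdma was 0.18 ± 0.54 (edgeR adjusted p = 0.818), and its sign turned with limma-voom (-0.11), with a replicate block (-0.04) and without STAT6-/- replicate 2 (-0.30). WT replicate 1, the library with stratified epithelium markers, did not stand out in Gsdma.

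Ordered by FPKM, which allows for transcript length, the WT colons had Gsdmc2 first (228 ± 28.3), then Gsdmc3 (158 ± 26.8), Gsdmd (145 ± 8.7) and Gsdmc4 (128 ± 7.7; SD, n = 3). Gsdmc2 lay above Gsdmc3 in every WT library range, while the ranges of Gsdmc3 and Gsdmd, and of Gsdmd and Gsdmc4, overlapped. In STAT6-/- Gsdmd came first (203 ± 49.2), with a range that overlapped that of Gsdmc2 (160 ± 17.7). Gsdmc4 (59.7 ± 11.2) and Gsdmc3 (41.5 ± 8.7) followed without overlap. Gsdma and Gsdmc were last in both genotypes, at 1.39 ± 0.119 and 1.37 ± 0.348 FPKM in WT and 1.62 ± 0.998 and 0.72 ± 0.18 in STAT6-/-, with overlapping ranges.

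The rest of the family was scarce in the colon. Gsdme, a pore-forming gasdermin like Gsdmd, stood at 1.59 to 3.03 CPM in STAT6-/- and 1.95 to 2.73 in WT, with a log2 fold change of 0.03 ± 0.37 (edgeR adjusted p = 0.96). Pjvk, the gasdermin relative of the inner ear, had at most 1 expected count in any library. Gsdma2 and Gsdma3, the neighbours of Gsdma, were not listed in any library. Of the 3 Gsdmc-like pseudogenes that lie among or beside the Gsdmc genes, Gsdmcl1 and Gsdmcl2 had at most 2.61 expected counts in any library.

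The third pseudogene, Gsdmcl-ps (63914461 to 63925453), lies 2.14 kb beyond Gsdmc4 and rose. It stood at 1.72, 1.55 and 2.7 CPM in STAT6-/- and at 0.413, 0.496 and 0.852 CPM in WT, from 30 to 51 and 7 to 15 expected counts per library. The rise was 3.36-fold (log2 fold change 1.75 ± 0.44, edgeR adjusted p = 0.0325), without overlap between the groups. It was lost on leaving out any library but STAT6-/- replicate 2 (adjusted p = 0.0629 to 0.131), and on the scale of log2 FPKM plus 1 the difference was 0.65. Its transcript shares no stretch of 50 bases with the Gsdmc genes, Gsdmd or Gsdma, the only ones it was compared with.

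No tested neighbour of the cluster fell. Within 1 Mb, 28 other genes are annotated, 7 were measured and 3 were tested, and 2 rose and 0 fell. Beside Gsdmcl-ps the riser was Cyrib (63929094 to 64060778), which encodes a regulator of the actin cytoskeleton that binds the GTPase Rac. Cyrib stood at 59.3, 38 and 52.7 CPM in STAT6-/- and at 33.4, 28.9 and 29 in WT (log2 fold change 0.72 ± 0.19, edgeR adjusted p = 0.0385), a call lost with upper quartile scaling (0.0536), on both log2 FPKM scales and without any single library but STAT6-/- replicate 2. The third tested neighbour, Asap1, had a log2 fold change of 0.32 ± 0.23 (adjusted p = 0.322) and passed without STAT6-/- replicate 2 (0.0336). Within 1 Mb of Gsdmd, 14 of 63 tested genes rose and 3 fell, with a median log2 fold change of -0.01. Over all genes tested 11.4% were higher and 11.5% lower, 22.9% in all, with a median of 0.01. Of those that rose, Ly6m, Ly6e, Ly6i, Ly6a, Ly6c1 and Ly6c2 are surface protein genes of a family of close relatives, 750 to 980 kb from Gsdmd. The others that rose were Parp10, Grina, Gpaa1, Sharpin, Bop1, Hsf1, Cpsf1 and Slc39a4. Zfp623, Scx and Vps28 fell. The call of Scx was lost in every fit that left out a library and with library size scaling (edgeR adjusted p = 0.0555), no filter (0.0696), limma-voom (0.0518) and a replicate block (0.0689). That of Ly6m was lost with no filter (0.0506), limma-voom (0.0503) and the block (0.0988), and that of Hsf1 with library size and upper quartile scaling (0.0537 and 0.0593), log2 FPKM plus 1 (0.0516) and the block (0.0802). The block also took the calls of Zfp623 (0.0641), Sharpin (0.0608) and Slc39a4 (0.0529), and leaving out either WT replicate 2 or WT replicate 3 took the calls of all of them.

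The Gsdmc level was also set against the epithelial markers of each library. The cluster's CPM amounted to 2.88%, 2.4% and 2.43% of the summed pan-epithelial markers in STAT6-/- replicates 1, 2 and 3 and to 6.43%, 5.01% and 7.41% in WT. The groups did not overlap, and the log2 ratio was 1.28 lower in STAT6-/- (-5.29 ± 0.15 against -4.01 ± 0.29, SD, n = 3; exact two-sided permutation test, p = 0.1, the smallest possible). The difference was thus no smaller per pan-epithelial signal than per library, but markers in that sum differed as well. Mean CPM in STAT6-/- and WT was 7200 and 4059 for Krt8, 4117 and 2364 for Krt19, and 3675 and 6928 for Lgals4. None of these was called, and none overlapped between the groups. Epcam, Krt18 and Cldn3 did overlap. The ratio therefore does not measure epithelial content alone. Against 7 markers of surface colonocytes the result was another: the log2 ratios were -3.22, -3.42 and -2.43 in STAT6-/- and -2.71, -2.96 and -2.30 in WT, which overlap (exact permutation p = 0.4, difference -0.37). The surface colonocyte markers summed to 4420, 5773 and 3611 CPM in STAT6-/- and 7402, 8490 and 5985 in WT. Within that list only Car1, a carbonic anhydrase, fell (108, 144 and 224 CPM against 1494, 1920 and 1602). Slc26a3 was not called (edgeR adjusted p = 0.0799) but was lower without overlap, at 737, 1607 and 254 CPM against 3176, 3371 and 2175. Car4, Aqp8, Guca2a and Guca2b overlapped between the groups. Krt20, a keratin of mature surface cells, rose 2.79-fold. The call of Krt20 was lost with a replicate block (edgeR adjusted p = 0.0625). Their part in the Gsdmc difference was not tested. Gsdmd amounted to 1.63%, 1.45% and 1.72% of the pan-epithelial sum in STAT6-/- and to 1.56%, 1.3% and 1.43% in WT, values that overlap (exact permutation p = 0.2). Against the surface colonocyte markers the log2 ratio of Gsdmd was 1.07 higher in STAT6-/-, and the groups did not overlap (exact permutation p = 0.1, the smallest possible).

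Other cell types also differed between the groups. Smooth muscle markers summed to 1989 to 4626 CPM in STAT6-/- and 8171 to 9993 in WT, with all 5 lower, and neutrophil markers to 456 to 1396 and 280 to 394, with 1 of 6 higher. Most of the neutrophil sum was Ly6g, another Ly6 gene. Without Ly6g, a sum added after the values were seen, the other 5 neutrophil markers came to 19.9 to 91.2 CPM in STAT6-/- and 11.3 to 40.1 in WT, which overlap. Macrophage and monocyte markers, which mark another source of Gsdmd, summed to 1490, 541 and 1198 CPM in STAT6-/- replicates 1, 2 and 3 and to 409, 622 and 628 in WT, with Cd14 alone of 8 higher. T cell markers summed to 14.3 to 79.3 and 15.9 to 18.4 CPM (2 of 6 higher), B and plasma cell markers to 1526 to 1961 and 701 to 1539 (1 of 8 higher), fibroblast markers to 535 to 1856 and 1428 to 3666 (1 of 5 lower), goblet markers to 8359 to 24398 and 21596 to 23083 (Clca1 of 8 lower), crypt base markers to 16.4 to 22.1 and 17.6 to 89.3 (0 of 3 tested) and tuft cell markers to 19.4 to 52.3 and 20.9 to 30.1 (1 of 4 tested higher). Il25 and Olfm4 were at 0 in at least 1 library. The crypt base sum of 89.3 was that of WT replicate 1, where Olfm4 held 65.5 CPM, against at most 0.211 in any other library. Beside these counts of markers, 11.4% of all genes tested were higher and 11.5% lower. The part of the cell type differences in the gasdermin values was not tested.

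Proteases that cut gasdermins were partly higher. Of 9 listed, 7 were tested, 4 rose and 1 fell, where 11.4% of all genes tested rose and 11.5% fell. Their median log2 fold change was 0.82. Casp4 encodes caspase-11, the sensor of cytosolic lipopolysaccharide that cuts Gsdmd. It stood at 94.1, 76.6 and 79.5 CPM in STAT6-/- and at 60.2, 55.9 and 44.5 in WT (1.56-fold higher, edgeR adjusted p = 0.0343). Casp1, the inflammasome caspase and the most abundant on average of the list, did not pass: 197, 190 and 158 CPM against 234, 310 and 253 (log2 fold change -0.55 ± 0.18, adjusted p = 0.0663). Casp6 fell 1.64-fold (adjusted p = 0.0338). Casp8, named after its values were seen because it has been reported to cut GSDMC, had 165, 88.1 and 201 CPM against 69.6, 89.7 and 62.1 (adjusted p = 0.0544) and passed with DESeq2 (0.0101), library size scaling (0.0407) and no filter (0.0478), and without STAT6-/- replicate 2 (0.00578). Gzmb, a cytotoxic granule protease of lymphocytes, rose to 10.3, 2.5 and 12.8 CPM from 0.17 to 0.354. The neutrophil proteases Elane and Ctsg were at or near 0 in all libraries. The calls of Casp4 and Casp6 were lost on leaving out any 1 WT library (edgeR adjusted p = 0.0665 to 0.141), and also without STAT6-/- replicate 1 (0.0702 and 0.0675). The call of Casp6 was also lost with library size scaling (edgeR adjusted p = 0.0599) and a replicate block (0.0503), and that of Gzmb without WT replicate 2 or 3 (edgeR adjusted p = 0.0697 and 0.0728). Casp1 passed with DESeq2 (adjusted p = 0.0228). Besides the 6 gasdermins and Stat6, 73 genes were followed through the alternatives, Gsdmcl-ps and Gsdme among them, of which 45 were called. Of these 45 calls, 42 were lost without WT replicate 2, all 45 without WT replicate 3 and 22 without WT replicate 1, and 17 of 44 were lost without STAT6-/- replicate 1.

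Of the inflammasome sensors and adaptors, Mefv alone passed. Of 14 listed and tested, 1 rose and 0 fell, where 11.4% of all genes tested rose and 11.5% fell. Their median log2 fold change was 0.06. Mefv, the gene of pyrin, stood at 6.2, 0.783 and 8.03 CPM against 0.707, 0.744 and 0.227 (edgeR adjusted p = 0.0448). Its call was lost with limma-voom (0.132), a replicate block (0.116) and both log2 FPKM scales (0.0916 and 0.0761), and on leaving out any library other than STAT6-/- replicate 2. Nlrp3 and Nlrp1b showed the same uneven STAT6-/- values, high in replicates 1 and 3 and low in replicate 2, and did not pass (adjusted p = 0.103 and 0.115). Both passed without STAT6-/- replicate 2 (0.00597 and 0.00632), and Nlrp3 with DESeq2 (0.0477). Naip1, which with Nlrc4 detects bacterial secretion systems and was the most abundant of the list, stood at 586 to 705 CPM in STAT6-/- and 670 to 713 in WT. Nek7, a partner of Nlrp3, had a log2 fold change of -0.37 ± 0.19 (adjusted p = 0.19).

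None of the genes for released cytokines and membrane rupture passed in edgeR with all libraries kept (6 of 7 tested, 0 at an unadjusted p under 0.05 by edgeR, median -0.31). Il18, an epithelial cytokine that gasdermin pores release, stood at 133, 189 and 46.7 CPM in STAT6-/- and at 244, 255 and 219 in WT (log2 fold change -0.97 ± 0.45, edgeR adjusted p = 0.154). Il1b, chiefly of myeloid cells, stood at 50, 2.61 and 25.1 against 9.84, 3.53 and 2.55 CPM (adjusted p = 0.129), and passed with DESeq2 (adjusted p = 0.0259) but not with limma-voom (0.359). Without STAT6-/- replicate 2, Il1b passed as higher and Il18 as lower (edgeR adjusted p = 0.0159 and 0.0493). Ninj1, which tears the membrane of dying cells, had a log2 fold change of -0.28 ± 0.16 (adjusted p = 0.223), and Hmgb1, released by dying cells, of -0.34 ± 0.20 (adjusted p = 0.247). The ESCRT-III machinery repairs gasdermin pores. Of its 12 listed genes 1 rose and 2 fell, where 11.4% of all genes tested rose and 11.5% fell, 22.9% in all. Pdcd6ip (ALIX) rose 1.89-fold, and Chmp5 and Chmp3 fell 1.96-fold and 1.54-fold (edgeR adjusted p = 0.0226, 0.0156 and 0.0449). The median of the list was -0.06. The call of Chmp3 was lost with no filter (0.0669) and a replicate block (0.0615). Chmp6 (adjusted p = 0.0514) did not pass here but did with DESeq2 (0.0201), with RLE, library size and upper quartile scaling (0.0459, 0.0254 and 0.0486), with a filter of 1 CPM in 3 libraries (0.0489) and on both log2 FPKM scales (0.0308 and 0.0294). The most abundant of the list, Chmp4b, did not pass (0.125).

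**Figure D5:**
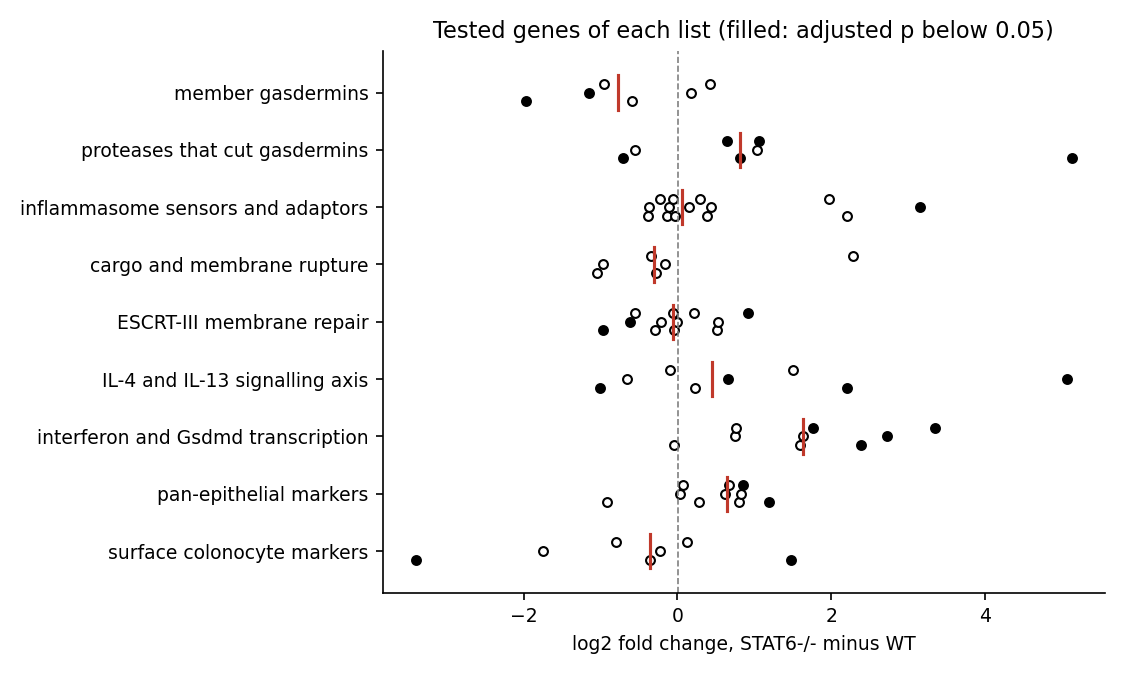
Log2 fold change (STAT6-/- minus WT) of the tested genes of each list, filled where the adjusted p was below 0.05, with the list median as a red line and the median of all tested genes (0.01) dashed. The 6 gasdermins have a median of -0.77, the proteases that cut them 0.82 and the interferon list 1.63.

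Upstream of the cluster, the genes of the IL-4 and IL-13 axis did not fall apart from Stat6. Of 8 tested, 3 rose and Stat6 alone fell, where 11.4% of all genes tested rose and 11.5% fell. Il4ra, the receptor chain shared by both cytokines, stood at 143, 56.8 and 148 CPM in STAT6-/- and at 25.5, 25.6 and 24.3 in WT (4.61-fold, edgeR adjusted p = 0.0134). The kinase gene Tyk2 rose 1.58-fold (adjusted p = 0.0184), and Il13 stood at 1.68, 2.4 and 0.581 CPM against at most 0.062 (adjusted p = 0.0151). Il13ra1, the most abundant receptor gene, had a log2 fold change of 0.23 ± 0.19 (adjusted p = 0.373), and Il4 was too scarce to be tested.

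Interferon genes were listed because Irf2 and Irf1 are known to drive Gsdmd transcription. Of 9 tested, 4 rose and 0 fell, with a median of 1.63, where 11.4% of all genes tested rose and 11.5% fell. Among those that rose were Stat2 (6.6-fold), Isg15 (10.2-fold) and Irf7 (3.38-fold), with edgeR adjusted p from 0.00732 to 0.0134. Irf2, named after its values were seen, stood at 77.5, 115 and 141 CPM in STAT6-/- and at 120, 126 and 95.9 in WT (adjusted p = 0.924), and Irf1 at 431, 375 and 456 against 226, 335 and 186 (adjusted p = 0.065). Irf1 passed with DESeq2 (0.0153), library size scaling (0.0365) and both log2 FPKM scales (0.0374 and 0.035), and without STAT6-/- replicate 2 (0.0442).

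The genes with the profile most like each gasdermin were found by the root mean square difference of centred log2 CPM over the 6 libraries. For the Gsdmc cluster sum they were Arl3 (0.07 on the log2 scale), Ift74 (0.0863), Pja2 (0.0871), Cryab (0.0969) and Tbc1d12 (0.105), all lower in STAT6-/- by 1.89-fold to 2.17-fold (edgeR adjusted p from 0.0112 to 0.0227). For Gsdmd they were Stxbp5 (0.0329), the catenin genes Ctnna1 (0.0517) and Ctnnb1 (0.0549), Coro1c (0.0641) and Pde9a (0.0661), none of which passed the test. Ctnnb1, for example, stood at 818, 936 and 1358 CPM in STAT6-/- and at 751, 788 and 638 in WT, highest in replicate 3 as Gsdmd was. For Gsdma the nearest profiles were farther off: Lrrc26 (0.177), Tcf7l1 (0.22), B4galnt3 (0.22), Bcas1 (0.221) and Aldh2 (0.248). Each of these was lowest in STAT6-/- replicate 1 and highest in STAT6-/- replicate 2, as Gsdma was. All were picked from 13054 candidate genes by this likeness, so their fold changes and p-values follow from the choice and are no separate result. With 6 libraries in 2 genotypes, such likeness describes these samples only.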

How the data were processed

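RNA of 6 colon libraries was analysed. The expected counts deposited by the authors are estimated reads per RefSeq transcript, and the FPKM deposited beside them are scaled to transcript length and depth, per the file headers. The submitters' processing notes name mm10, RSEM 1.2.12 and Bowtie2 2.2.5. The read length is not given in the sources used here. Transcripts below an FPKM of 0.01 are not listed and were taken as 0.

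Counts were summed per gene (27981 of 28238 transcripts named by RefSeq's GRCm38.p6 table, 154 by GENCODE M21, 103 unnamed with 0.167% of counts) and rounded. All genes were fitted together with edgeR 4.0.16 (quasi-likelihood F test, TMM, filterByExpr, robust; R 4.3.3), adjusted by Benjamini-Hochberg, with calls below 0.05 and SE as the log2 fold change over the root of F. "Rose" and "fell" are used for calls. For the cluster sum the 4 Gsdmc rows were replaced by 1. The fit was tested on simulated data. Alternatives were RLE, library size and upper quartile scaling, no filter or 1 CPM in 3 libraries, DESeq2 1.42.0, limma-voom (limma 3.58.1), no robust estimation, log2 FPKM plus 1 or 0.1, a replicate block and each library left out.

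The members, lists and tests were chosen with earlier results of these data known. Named were the gasdermins, up to 4 genes of smallest p and the most abundant gene of each list, neighbours that passed, and the 5 likest profiles among genes whose mean log2 CPM was 1 or more. Marker lists are given mainly by sums and counts. Casp8, Irf1, Irf2 and Epcam were named after their values were seen. Also named outside this rule were Asap1, Krt18, Krt19, Cldn3, Car4, Aqp8, Guca2b, Elane, Ctsg, Olfm4, Il25 and Il4. Some genes that the rule selects are not reported here. Coding sequences were aligned globally with Biopython 1.88. Protein identity was planned and not analysed here. Figures were drawn with matplotlib 3.10.9.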

Additional observations from a re-analysis of the deposited data

How the results depend on the processing

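The 4 Gsdmc genes and their sum were lower in STAT6-/- under all 17 alternatives. Gsdmc3, Gsdmc4, the sum and Stat6 kept their call under the 11 alternatives that used all 6 libraries, with log2 fold changes from -2.02 to -1.91, from -1.20 to -1.10, from -1.08 to -0.98 and from -1.05 to -0.90. Gsdmc2 passed with upper quartile scaling (-0.64) and DESeq2 (-0.57). Gsdma, which was not called, turned sign with limma-voom (-0.11) and a replicate block (-0.04), and Gsdme with upper quartile scaling (-0.0065), limma-voom (-0.0079) and the block (-0.0046). With 1 library left out, the log2 fold changes ran from -1.17 to -0.75 for Gsdmc, -0.68 to -0.48 for Gsdmc2, -2.08 to -1.73 for Gsdmc3, -1.32 to -0.99 for Gsdmc4, 0.22 to 0.63 for Gsdmd, -0.30 to 0.64 for Gsdma, -1.13 to -0.89 for the sum, -1.06 to -0.85 for Stat6 and -0.12 to 0.32 for Gsdme. The gasdermin genes called lower then numbered 0 to 3, with 0 only without WT replicate 2 or WT replicate 3 (4 gasdermin genes had an unadjusted p under 0.05 by edgeR with all libraries), and the genes called over the genome 12 to 2750 higher and 6 to 2440 lower. DESeq2 called 2713 higher and 2403 lower against 1718 and 1731. Against surface colonocyte markers the log2 ratio difference was -0.37 for the Gsdmc cluster and 1.07 for Gsdmd, against -1.28 and 0.16 per pan-epithelial sum. With 1 library left out the ratio differences ran from -1.43 to -1.15 and from 0.10 to 0.23, and the share differences were Gsdmc -0.0173 to 0.0351, Gsdmc2 15.2 to 18.2, Gsdmc3 -16.4 to -13.3, Gsdmc4 -3.94 to -1.54 percentage points. Among other genes named, none of which was called, the sign turned with library size scaling for Irf2 (0.0089), with limma-voom for Tcf7l1 (-0.06) and B4galnt3 (-0.00033), with the block for Tcf7l1 (-0.05), and with 1 library left out for Naip1 (-0.09 to 0.05), Lrrc26 (-0.14 to 0.56), Tcf7l1 (-0.38 to 0.55), B4galnt3 (-0.16 to 0.49), Bcas1 (-0.43 to 0.25), Irf2 (-0.20 to 0.20), Epcam (-0.05 to 0.25) and Aldh2 (-0.34 to 0.54). Deviations from the group means correlated at 0.023, 0.044 and 0.134 between same-numbered libraries of the genotypes, and at -0.109 to 0.054 between the others. STAT6-/- replicates 1 and 3 correlated best with their own number, and replicate 2 with WT replicate 1. Deviations from a mean of 3 libraries are not independent, so these values cannot exclude that same-numbered libraries share a factor. With the replicate block 1219 genes were higher and 1445 lower, and no gasdermin call changed. Gsdmc, Gsdma, Gsdme and Gsdmcl-ps rest on few counts, 7 to 135 per library.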
